A study of Homo sapiens with 6 samples.

Results

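NR4A1, NR4A2, NR4A3, EGR1, EGR2, EGR3, IER2, IER3, IER5 and SRF are immediate early genes or their regulator, and their mRNA levels were followed in HCT116 cells after p53 activation. These 10 of the 57905 genes of the count matrix were chosen by name with the counts of all 6 libraries already known, so their own changes are given as a description and without p-values. HCT116 is a human colorectal carcinoma cell line with wild-type p53. Cells received 10 µM Nutlin-3a, a small molecule that keeps MDM2 from binding p53, for 1 h (Nut 1h) or 10 h (Nut 10h), and control cells received the vehicle DMSO (Nut 0h). How long the vehicle was applied is not given in the sources used here. Each condition had 2 biological replicates (BR1 and BR2), all from the same unmodified line. RNA extracted from these cells was sequenced, and the authors treat the result as levels of mature mRNA.

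Immediate early genes are transcribed within minutes of a stimulus without any need for new protein, and their mRNAs are usually short-lived. In the best known route, growth factors activate the ERK kinases, which phosphorylate the ternary complex factors of the ELK family bound beside serum response factor (SRF) on CArG boxes. Calcium and cyclic AMP act through CREB on cyclic AMP response elements (CRE), and actin dynamics act on SRF through the MRTF coactivators. NR4A1, NR4A2 and NR4A3 encode orphan nuclear receptors, and EGR1, EGR2 and EGR3 encode zinc-finger transcription factors. IER2, IER3 and IER5 share a name given for their fast induction.

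Promoter sequences show which of these input sites lie near the annotated starts that were searched. RefSeq promoter windows (GRCh38.p14) of 300 bases, from 250 bases before to 50 bases after an annotated start, were found for 7 of the 10 genes in 11 windows. NR4A2, EGR3 and IER3 had no window. CArG boxes and the CRE half-site TGACG were searched on both strands, and they are in capitals below in the 250 bases upstream of the start, written 5′ to 3′ on the gene's strand (a half-site on the other strand reads CGTCA). EGR1, EGR2 and SRF are shown because they hold CArG boxes, NR4A3 because it holds only CRE half-sites, and IER5 because it holds neither. The regions are chr5:138465229-138465478 (plus strand) for EGR1, chr10:62816367-62816616 (minus strand) for the third EGR2 start, chr6:43171019-43171268 (plus strand) for the first SRF start, chr9:99821635-99821884 (plus strand) for NR4A3 and chr1:181088450-181088699 (plus strand) for IER5.
EGR1: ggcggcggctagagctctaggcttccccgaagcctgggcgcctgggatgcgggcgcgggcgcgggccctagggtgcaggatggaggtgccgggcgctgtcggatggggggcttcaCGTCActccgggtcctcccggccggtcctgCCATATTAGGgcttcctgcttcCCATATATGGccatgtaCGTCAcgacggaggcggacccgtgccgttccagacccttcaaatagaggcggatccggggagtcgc
EGR2: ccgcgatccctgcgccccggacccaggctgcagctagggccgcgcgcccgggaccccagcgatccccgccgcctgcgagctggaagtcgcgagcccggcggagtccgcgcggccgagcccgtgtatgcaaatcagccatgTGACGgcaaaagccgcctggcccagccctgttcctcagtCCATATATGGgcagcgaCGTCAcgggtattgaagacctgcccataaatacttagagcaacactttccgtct
SRF: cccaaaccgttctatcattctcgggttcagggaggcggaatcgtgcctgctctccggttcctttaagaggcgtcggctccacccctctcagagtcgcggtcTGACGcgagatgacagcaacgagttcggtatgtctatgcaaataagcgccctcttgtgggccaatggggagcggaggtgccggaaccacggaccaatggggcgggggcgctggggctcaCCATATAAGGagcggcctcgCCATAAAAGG
NR4A3: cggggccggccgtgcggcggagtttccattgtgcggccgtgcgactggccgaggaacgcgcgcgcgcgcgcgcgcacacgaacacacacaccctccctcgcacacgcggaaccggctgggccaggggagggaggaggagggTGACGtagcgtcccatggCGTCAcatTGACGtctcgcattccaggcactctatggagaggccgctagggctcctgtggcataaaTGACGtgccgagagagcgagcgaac
IER5: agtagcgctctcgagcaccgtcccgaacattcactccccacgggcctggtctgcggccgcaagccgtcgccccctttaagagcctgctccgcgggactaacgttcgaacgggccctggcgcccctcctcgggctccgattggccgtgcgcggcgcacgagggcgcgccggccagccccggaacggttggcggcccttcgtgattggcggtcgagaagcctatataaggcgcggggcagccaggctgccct

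CArG boxes were found in 3 of the 7 genes, at −105 to −96 and −83 to −74 from the start in EGR1, at −71 to −62 in EGR2, and at −30 to −21 and −10 to −1 in SRF. Of all 35116 promoter windows of the table, 454 (1.29%) held a CArG box. NR4A3 held 4 CRE half-sites between −109 and −21, EGR1 and EGR2 held 2 each, and SRF and IER2 held 1 each, while 24.6% of all windows held at least 1. Neither window of NR4A1 and not the window of IER5 held a CArG box or a CRE half-site. The full CRE (TGACGTCA, which contains the half-site), the NR4A binding element AAAGGTCA and a p53 site of 2 adjoining half-sites were found in no window of the 7 genes. They were found in 1.85%, 1.22% and 0.0171% of all windows. An EGR site (GCGTGGGCG or GCGGGGGCG) was found once, in SRF at −49 to −41, against 5.77% of all windows. These matches are letters in a window and no measurement of binding, and a window without a match shows only that these letters are not in it.

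**Figure D1:**
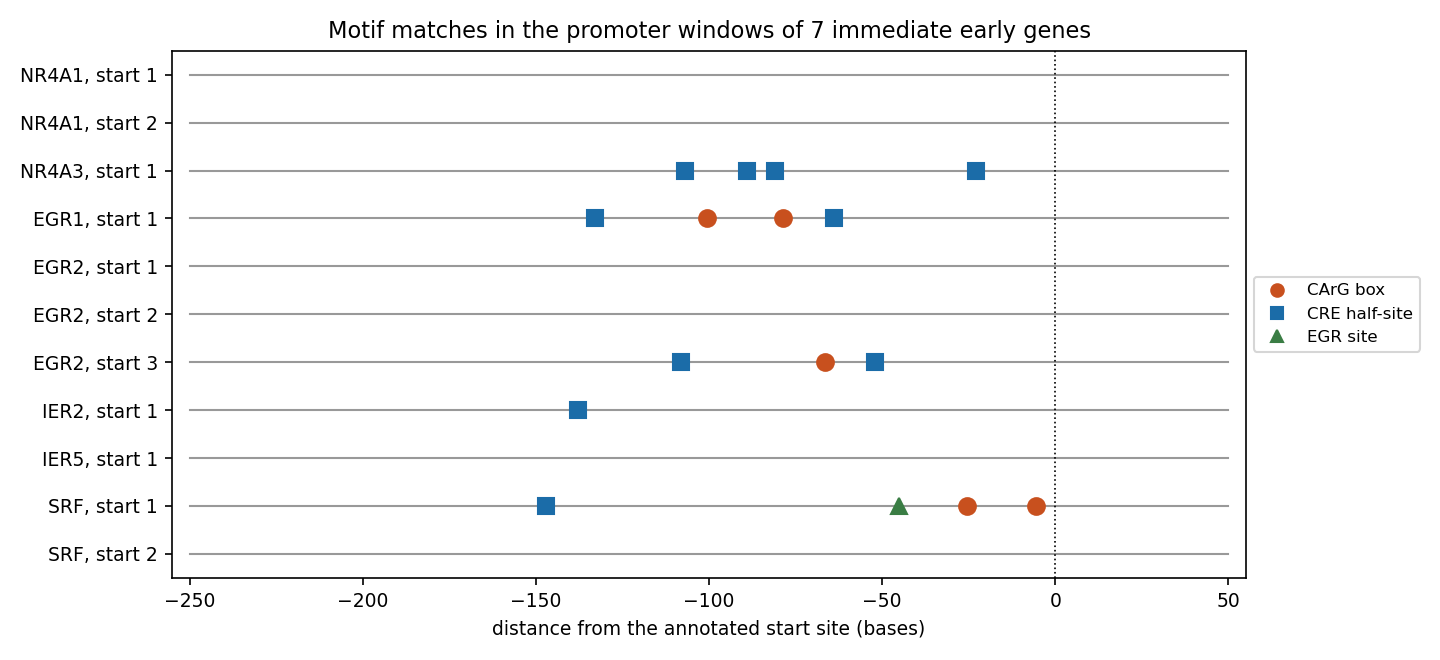
Positions of CArG boxes (circles), CRE half-sites (squares) and an EGR site (triangle) in the RefSeq promoter windows of 7 genes, as distance in bases from the annotated start site (dotted line); each grey line is 1 window. CArG boxes lie between −105 and −1 in EGR1, EGR2 and SRF, and the other windows hold none.

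The libraries held between 26068076 and 35473485 counts on genes, so that sampling error was small for all members except NR4A3, EGR2 and EGR3 at their lowest. All 10 members passed the low-count filter. Of the p53 targets, MDM2 was 4.56-fold higher at Nut 1h and 13.4-fold higher at Nut 10h (edgeR's quasi-likelihood test, adjusted p = 3.54e-08 and 4.51e-10), and CDKN1A was 14.3-fold higher at Nut 10h (adjusted p = 1.03e-10) but not called at Nut 1h (1.03-fold, adjusted p = 0.704, libraries overlapping). The epithelial markers EPCAM, KRT8, KRT18, KRT19 and CDH1 had at least 2354 counts in every library. Of the other lineages' markers, PTPRC, CD3E, CDH5 and COL3A1 had at most 2 counts, COL1A2, PDGFRB and CD14 at most 36, and COL1A1 had 621 to 1484 counts. Between Nut 0h and Nut 1h the log2 fold change depended on the GC content of a gene's longest transcript (Pearson r = −0.69 across 16137 genes, which are not independent replicates), with a median log2 fold change of 0.79 below 40% GC and −1.12 at 60% GC or more. Between Nut 0h and Nut 10h it did not (r = −0.03). The members' values at Nut 1h are therefore given also after a smooth offset for GC content. Whether that dependence is part of the cells' response or of library preparation cannot be told apart, since both Nut 1h libraries share it. These libraries also had the highest share of mitochondrial counts, 8.44% and 8.15% against 4.99% to 7.06% in the other 4, and its part in the results was not tested. In bulk RNA, a change in mRNA per cell and a change in the share of cells that express a gene cannot be told apart either.

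At Nut 1h, 6 of the 10 members were called higher than at Nut 0h, 3 lower and 1 neither, at an adjusted p of at most 0.05. For the members, being called is a label for passing this threshold and no test, since they were chosen with the counts known. Of all 16565 tested genes 34.5% were called higher and 32.3% lower in this comparison, so the 3 of 10 members called lower are close to the share of all genes. The 6 called higher were the 3 NR4A and the 3 EGR genes, and the 3 called lower were IER2, IER3 and IER5. With the GC-content offset, 9 members were called higher and only IER5 lower, beside 20.2% and 25.3% of all tested genes in that fit. At Nut 10h against Nut 0h, 3 members were called higher and 3 lower, beside 14.1% and 14.9% of all tested genes. The offset gave 4 higher and 3 lower there, beside 16.8% and 22.4%. Of the 4, IER3 was not called with offset and replicate block together. Between Nut 1h and Nut 10h, 6 members were called lower and 3 higher, beside 33.7% and 34.2% of all tested genes, and with the offset 8 lower and 1 higher, beside 28.8% and 29.0%. The 3 comparisons share their libraries pairwise and are not independent of each other.

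**Figure D2:**
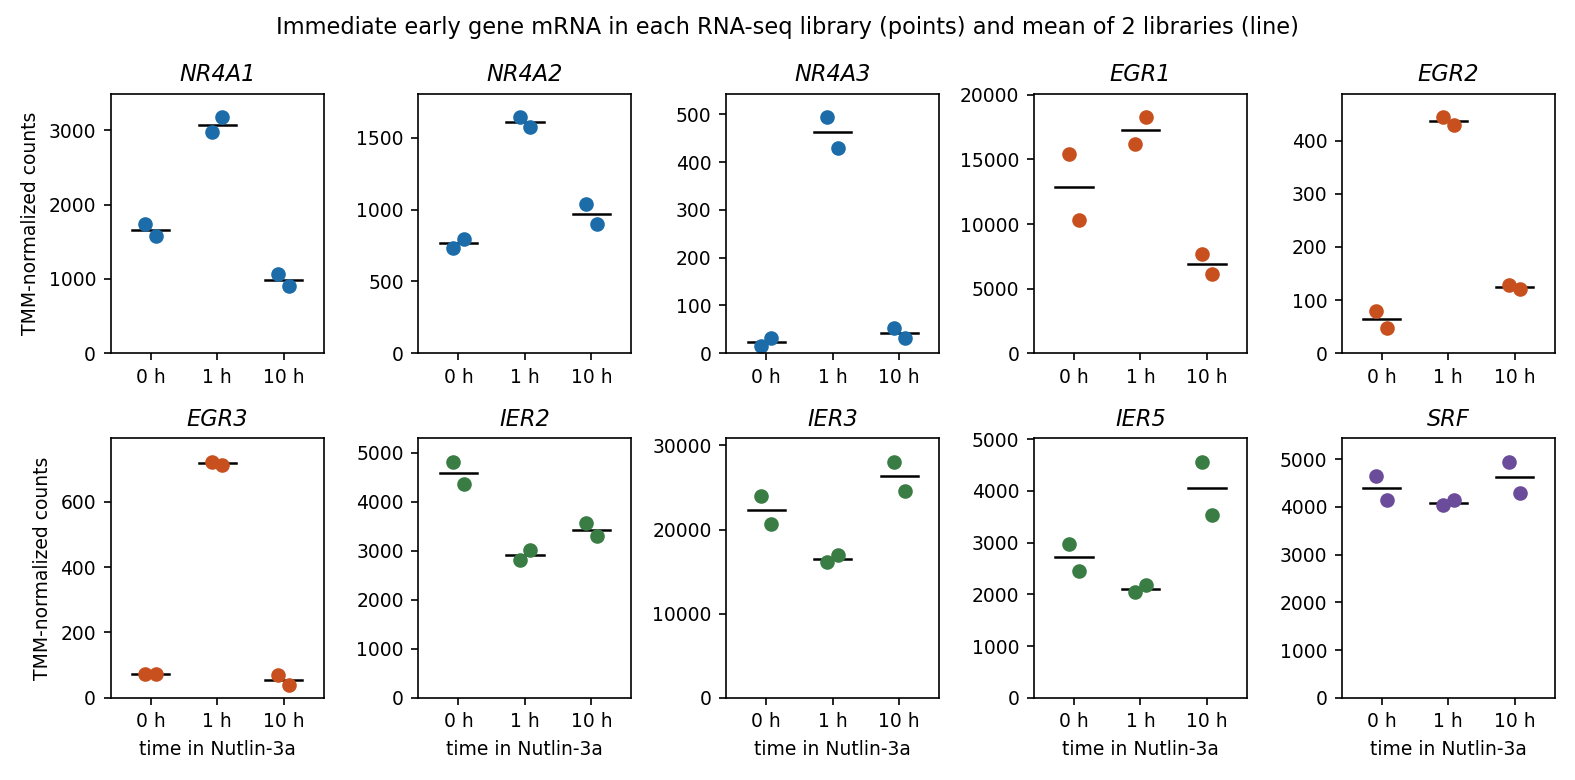
TMM-normalized counts of each gene (vertical axes, from 0) in the 2 libraries of Nut 0h, Nut 1h and Nut 10h (points) with their mean (line). NR4A1, NR4A2, NR4A3, EGR2 and EGR3 have both Nut 1h libraries above the other 4, and so does EGR1 by a small margin, whereas IER2, IER3 and IER5 have both Nut 1h libraries lowest.

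NR4A3 had the largest fold among the members. Its gene lies on chromosome 9 (GRCh37, 102584137 to 102629173, plus strand). Its TMM-normalized counts, which are counts scaled to a common library size, were 15.5 and 32.9 in BR1 and BR2 of the control cells, 494 and 430 after 1 h, and 52.2 and 31.6 after 10 h. The raw counts behind the lowest library were 16, so the base of the fold is imprecise. Both Nut 1h libraries lay far above the other 4, and the Nut 0h and Nut 10h libraries overlapped. The change on the log2 scale was 4.25 ± 0.25 (SE, n = 2 against 2) at Nut 1h, or 19.0-fold, and 4.01 with the GC-content offset. Without BR1 of Nut 0h it was 3.80, and without BR2 it was 4.88. Between Nut 1h and Nut 10h the level was 11.0-fold lower (log2 fold change −3.47 ± 0.23). At Nut 10h against Nut 0h the log2 fold change of 0.78 ± 0.34 was not called, but it was called without BR2 of Nut 0h (1.42) and without BR2 of Nut 10h (1.12).

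NR4A1, also known as NUR77, was higher at Nut 1h and lower at Nut 10h than in the control. The gene lies on chromosome 12 (GRCh37, 52416616 to 52453291, plus strand). Its normalized counts were 1734 and 1576 in control cells, 2973 and 3179 after 1 h, and 1062 and 901 after 10 h, and no library of one condition overlapped with another condition. The change on the log2 scale was 0.89 ± 0.10 at Nut 1h, a 1.86-fold difference, and −0.75 ± 0.11 at Nut 10h, a level 1.69-fold lower. The transcript has 59.8% GC, where most genes were lower at Nut 1h, and with the offset the value at Nut 1h was 1.67, or 3.19-fold. An antisense gene, NR4A1AS, overlaps its exons, and it held 8 to 67 counts per library.

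NR4A2, known as NURR1, on chromosome 2 (GRCh37, 157180949 to 157198860, minus strand), had normalized counts of 732 and 797 in control cells, 1643 and 1571 after 1 h, and 1038 and 900 after 10 h. Both Nut 1h libraries were the highest, and both Nut 10h libraries lay between the other conditions. On the log2 scale the change at Nut 1h was 1.07 ± 0.11, and 0.91 with the offset at a transcript GC content of 47.9%. At Nut 10h it was 0.34 ± 0.11, and this call was lost without BR1 of Nut 0h (0.28), without either Nut 1h library (0.34 in both) and without BR1 of Nut 10h (0.24). The 3 receptors thus stood at different places after 10 h: NR4A1 below its control libraries, NR4A2 above them and NR4A3 overlapping with them.

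EGR3, which encodes a zinc-finger factor known from muscle spindle development and lymphocytes, had the second largest fold. The gene lies on chromosome 8 (GRCh37, 22545172 to 22550993, minus strand). The normalized counts were 74.4 and 73.2 in control cells, 722 and 712 after 1 h, and 68.6 and 40.0 after 10 h. The replicates differed by little at Nut 0h and Nut 1h and by more at Nut 10h. The change on the log2 scale was 3.28 ± 0.17 at Nut 1h (9.70-fold), 3.53 with the offset, and between 3.24 and 3.28 when any 1 library was left out. From Nut 1h to Nut 10h the level was 13.2-fold lower (−3.73 ± 0.18). Against Nut 0h the Nut 10h value of −0.45 ± 0.22 was not called, although both Nut 10h libraries lay below the controls, and without BR1 of Nut 10h it was −0.88 and called.

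EGR2, known for its role in myelinating cells and in lymphocytes, on chromosome 10 (GRCh37, 64571756 to 64578927, minus strand), had normalized counts of 80.2 and 47.9 in control cells, 444 and 429 after 1 h, and 129 and 121 after 10 h. The conditions did not overlap, and the order was Nut 1h, Nut 10h, Nut 0h. The log2 fold changes were 2.77 ± 0.19 at Nut 1h (6.83-fold, 3.21 with the offset) and 0.96 ± 0.21 at Nut 10h (1.95-fold). The Nut 0h libraries were the most unequal, and without one or the other the Nut 1h value was 2.43 or 3.18.

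EGR1, the most abundant transcription factor mRNA of the group, changed least among the EGR genes at Nut 1h. The gene lies on chromosome 5 (GRCh37, 137801168 to 137804992, plus strand). The normalized counts were 15451 and 10325 in control cells, 16225 and 18280 after 1 h, and 7670 and 6166 after 10 h. The lower Nut 1h library was only slightly above the higher control library, and the 2 control libraries lay far apart. On the log2 scale the change at Nut 1h was 0.42 ± 0.16, and 0.87 with the offset. The call at Nut 1h was lost without BR2 of Nut 0h (0.15), without BR1 of Nut 1h (0.51) and without BR2 of Nut 1h (0.32), and with DESeq2 (0.37). At Nut 10h EGR1 was 1.86-fold lower than at Nut 0h (−0.90 ± 0.16), in both libraries and with any 1 library left out (−1.16 to −0.58).

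**Figure D3:**
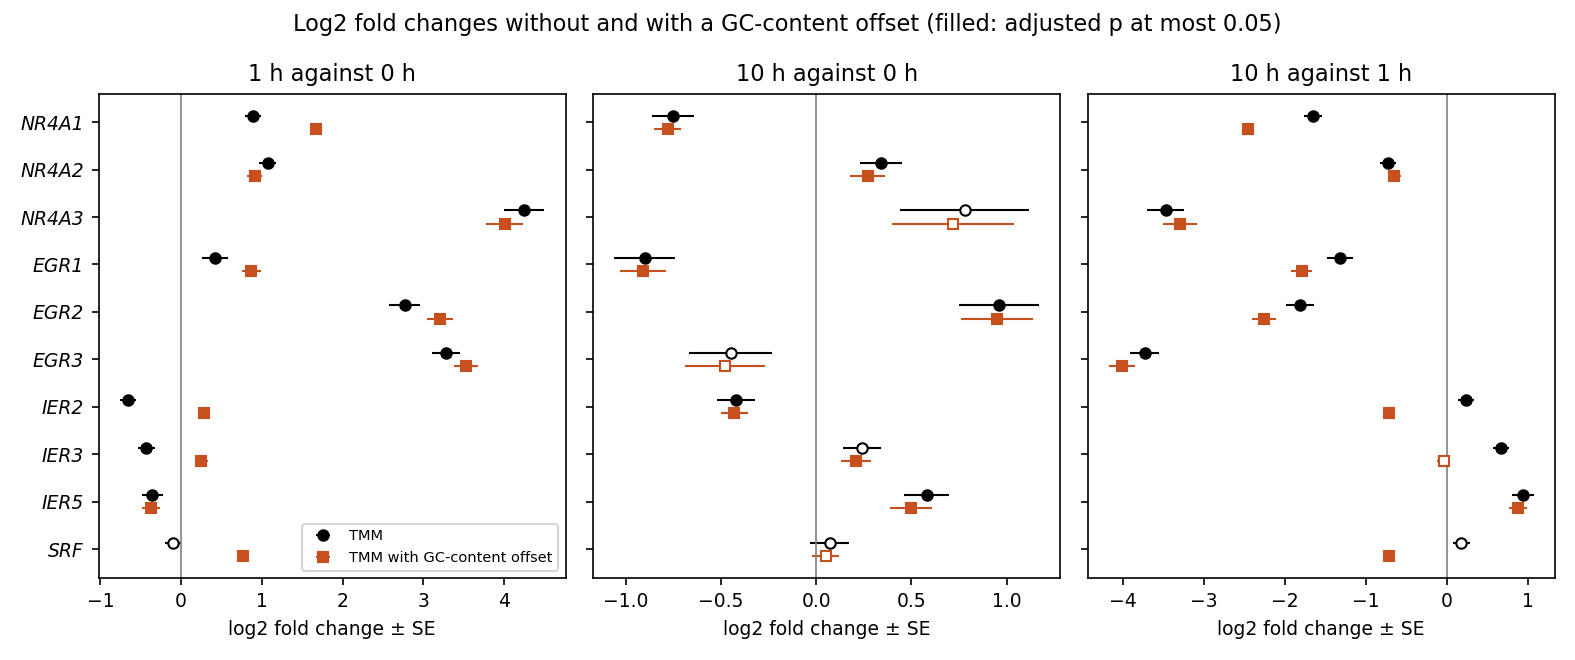
Log2 fold changes (horizontal axes, each panel with its own scale) with their standard errors for 1 h against 0 h, 10 h against 0 h and 10 h against 1 h, from TMM-normalized counts (circles) and with a GC-content offset (squares); filled symbols have an adjusted p of at most 0.05. NR4A and EGR genes lie right of 0 at 1 h in both, whereas IER2, IER3 and SRF change side with the offset.

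IER3 and IER2 were lower at Nut 1h before, and higher after, the GC-content offset. IER3, also named IEX-1, encodes a stress-responsive regulator of apoptosis and lies on chromosome 6 (GRCh37, 30710976 to 30712325, minus strand). Its normalized counts were 23941 and 20716 in control cells, 16132 and 16988 after 1 h, and 28071 and 24621 after 10 h. Both Nut 1h libraries were the lowest, and the Nut 10h libraries lay above the controls without being called. The log2 fold changes were −0.43 ± 0.10 at Nut 1h (0.25 with the offset) and 0.24 ± 0.10 at Nut 10h (0.21 with the offset, then called). That call at Nut 10h was lost with offset and replicate block together.

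IER2, an immediate early gene of serum-stimulated cells, lies on chromosome 19 (GRCh37, 13261225 to 13265725, plus strand). Its normalized counts were 4817 and 4365 in control cells, 2811 and 3014 after 1 h, and 3572 and 3292 after 10 h. The conditions did not overlap, and the control libraries were the highest. The log2 fold changes were −0.66 ± 0.10 at Nut 1h, a sign that the offset turned (0.28), and −0.42 ± 0.10 at Nut 10h (−0.43 with the offset). The call at Nut 10h was lost without BR1 of Nut 0h (−0.35). The transcripts of IER2 and IER3 have 61.7% and 58.5% GC. Antisense genes overlap both, with 0 to 7 counts per library for IER3-AS1, at most 3 for HCG20 and none for the one at IER2 in the matrix.

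IER5, which encodes a regulator of heat shock factor signalling, on chromosome 1 (GRCh37, 181057836 to 181062036, plus strand), was lower at Nut 1h with and without the offset and higher at Nut 10h. Its normalized counts were 2972 and 2459 in control cells, 2045 and 2180 after 1 h, and 4566 and 3534 after 10 h. The 3 conditions did not overlap, although the replicates of Nut 10h differed by more than the gap between them and the controls. The change on the log2 scale was −0.36 ± 0.13 at Nut 1h (−0.37 with the offset at 49.8% GC) and 0.58 ± 0.12 at Nut 10h. The call at Nut 1h was lost without BR1 of Nut 0h (−0.23) and without either Nut 1h library (−0.31 and −0.42). From Nut 1h to Nut 10h it was 1.92-fold higher (0.94 ± 0.13), and it alone of the members was also called higher in that comparison with the offset (1.84-fold).

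Without the offset, SRF mRNA changed least. The gene lies on chromosome 6 (GRCh37, 43139007 to 43149244, plus strand), and its normalized counts were 4649 and 4151 in control cells, 4041 and 4143 after 1 h, and 4948 and 4295 after 10 h. The Nut 1h libraries lay just below the controls, and the Nut 10h libraries overlapped with them. Its log2 fold changes of −0.10 ± 0.10 (Nut 1h) and 0.07 ± 0.10 (Nut 10h) were not called. At 60.8% GC the offset moved the Nut 1h value to 0.76, which was called, and left the Nut 10h value at 0.05.

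**Figure D4:**
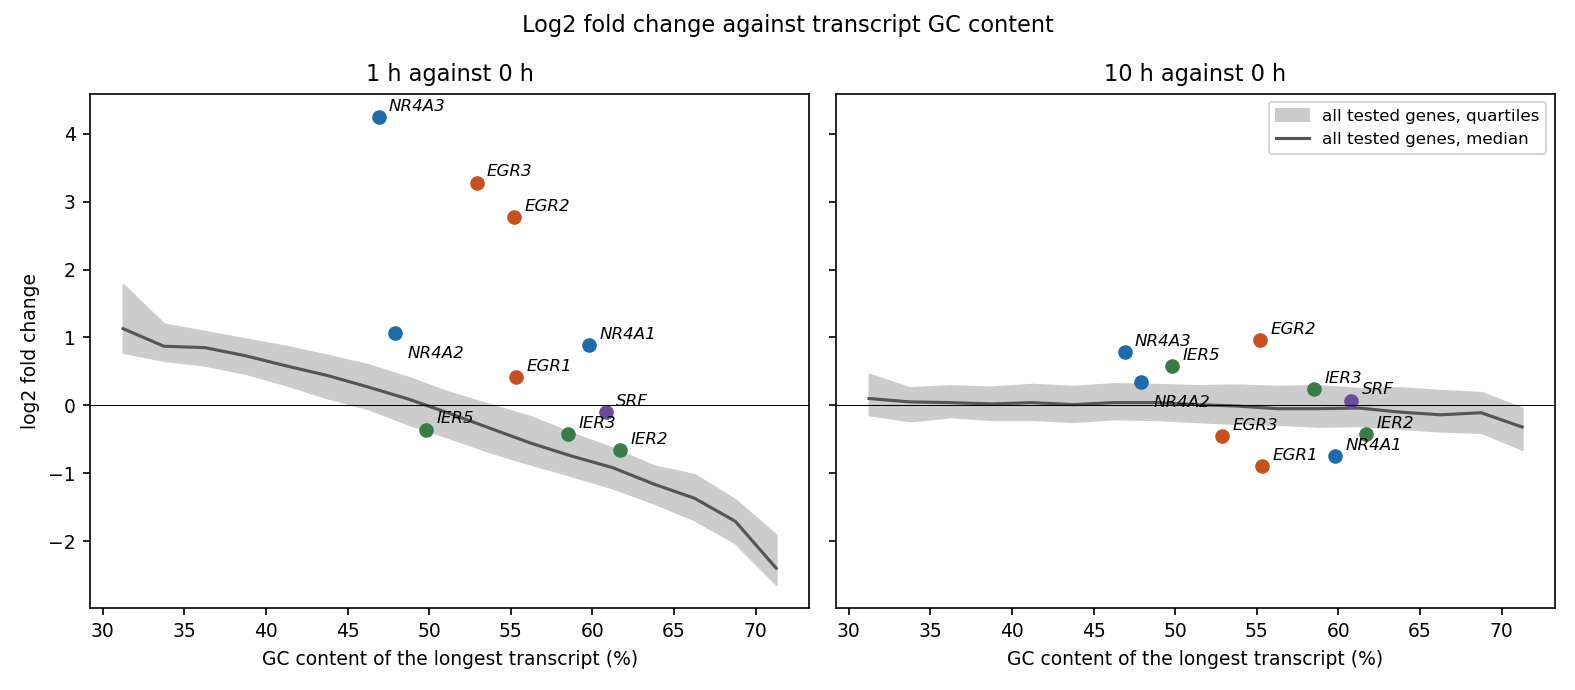
Log2 fold change of the 10 genes (points) against the GC content of the longest transcript (%), at 1 h and 10 h against 0 h, with the median (line) and the quartiles (grey band) of all tested genes in GC bins. At 1 h the line falls with GC content. The NR4A and EGR genes and SRF lie above the band there, and IER2 and IER3 lie at its upper edge. At 10 h the line is nearly flat.

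Set against genes of like GC content, the members at Nut 1h spread from IER5, below the median of its bin, to NR4A3. The median log2 fold change of all tested genes was 0.27 at 45 to 47.5% GC, the range of NR4A3, 0.09 at 47.5 to 50%, the range of NR4A2 and IER5, and −0.34 at 52.5 to 55%, the range of EGR3. It was −0.56 at 55 to 57.5% (EGR1 and EGR2), −0.75 at 57.5 to 60% (NR4A1 and IER3) and −0.92 at 60 to 62.5% (IER2 and SRF). IER2, IER3 and SRF were thus less reduced than the median gene of their range, as their values with the offset give. At Nut 10h the medians of the same ranges lay between −0.05 and 0.04, and the offset moved the members little, for example IER5 from 0.58 to 0.50.

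Per kilobase of the canonical transcript, which allows levels to be compared between genes, the members differed widely. In control cells the mean normalized counts per kilobase were 18050 ± 1843 (SD, n = 2) for IER3, 4108 ± 1155 for EGR1, 2176 ± 152 for IER2 and 1040 ± 83.3 for SRF. They were 666 ± 44.9 for NR4A1, 646 ± 86.3 for IER5, 220 ± 13.2 for NR4A2, 21.5 ± 7.67 for EGR2, 16.4 ± 0.182 for EGR3 and 4.31 ± 2.20 for NR4A3. NR4A1 and IER5, and likewise EGR2 and EGR3, did not differ beyond their spread. On this scale IER3 stood at the 99.3 percentile of 15841 tested genes, and NR4A3 at the 5.47 percentile. At Nut 1h the genes lowest in control cells were still the lowest of the group, at 159 ± 1.57 for EGR3, 147 ± 3.63 for EGR2 and 82.4 ± 7.97 for NR4A3. In the same cells NR4A1 stood at 1238 ± 58.7 and passed SRF at 967 ± 17.0, and IER2 at 1380 ± 68.0 lay above both. At Nut 10h EGR1 stood at 2205 ± 339 and IER2 at 1627 ± 93.8, and NR4A1 at 395 ± 46.0 lay below IER5 at 964 ± 174.

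The genes upstream, beside and downstream of the members in the literature were followed as 7 lists of 71 genes. Like the members, these lists were chosen with earlier results of these data known, and genes were named mainly for large changes. Their adjusted p-values, here and below, are therefore a description of single genes and no independent support. EGR4 and IER5L, close relatives of the members, and the EGR corepressors NAB1 and NAB2 gave 1 gene called higher and 1 lower at Nut 1h, beside 34.5% and 32.3% of all tested genes, and also 1 and 1 with the offset (20.2% and 25.3%). IER5L was 9.54-fold lower at Nut 1h (−3.25 ± 0.16 on the log2 scale, adjusted p = 1.03e-08 by edgeR's quasi-likelihood test), at 1008 and 1036 normalized counts against 10947 and 8554 in the controls. Its Nut 10h libraries stood at 9126 and 6572, and with the offset the Nut 1h value was −2.00, still called lower. NAB1 was higher at Nut 1h (0.73 ± 0.10, adjusted p = 1.84e-05 by the same edgeR test, but 0.13 and not called with the offset), and NAB2 at Nut 10h (0.50 ± 0.11, adjusted p = 0.00264). NAB2 was not called at Nut 1h (−0.18) but was called higher there with the offset (0.70).

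Of the SRF cofactors, 5 of 6 were tested, and 2 rose and 2 fell at Nut 1h, beside 34.5% and 32.3% of all tested genes. ELK4, a ternary complex factor, rose from 1074 and 1329 normalized counts to 4111 and 3462 (log2 fold change 1.66 ± 0.13, adjusted p = 2.2e-07 by edgeR's quasi-likelihood test, 0.93 with the offset). MKL1, which encodes the coactivator MRTF-A, fell (−1.28 ± 0.11, adjusted p = 3.38e-07), and did so with the offset too (−0.36). ELK1 fell by 0.73 and MKL2 rose by 0.38, and neither was called with the offset. ELK3 was not called at Nut 1h (0.15) but was called lower with the offset (−0.36), which gave 1 gene higher and 2 lower, beside 20.2% and 25.3%. The list had 1 gene higher, not 2, also with DESeq2 and without BR1 of Nut 0h or either Nut 1h library. At Nut 10h ELK3 alone was called in the fit without the offset (higher, 0.39 ± 0.09, adjusted p = 0.00445 by edgeR). Of all tested genes 14.1% were called higher and 14.9% lower there. With the offset ELK3 (0.36) and ELK4 (0.22) were called higher and none lower, beside 16.8% and 22.4%. With offset and replicate block together, 1 gene of the list was higher.

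Of 16 actin and matrix genes known as SRF and MRTF targets, 6 rose and 4 fell at Nut 1h, with a median log2 fold change of −0.02 against 0.05 over all tested genes, of which 34.5% were called higher and 32.3% lower. With the GC-content offset 11 rose and 3 fell, with a median of 0.35, beside 20.2% and 25.3% of all tested genes. CTGF and CYR61, which encode secreted matricellular proteins and answer fast to stimuli, rose most. CTGF went from 265 and 214 normalized counts to 1624 and 1576 (2.74 ± 0.12, adjusted p = 4.39e-09 by edgeR's quasi-likelihood test, 2.87 with the offset) and stood at 276 and 259 at Nut 10h. CYR61 went from 2324 and 1723 to 11535 and 12480 (2.57 ± 0.14, adjusted p = 2.06e-08, 2.39 with the offset) and stood at 2508 and 2087 at Nut 10h. TAGLN rose by 0.94 (1.43 with the offset) and ZYX fell by 0.77, a fall that the offset turned (0.35). At Nut 10h 3 of the 16 rose and 1 fell, beside 14.1% and 14.9% of all tested genes, and 3 rose and 3 fell with the offset, beside 16.8% and 22.4%. The gene that fell, TAGLN2 (−0.42), lost its call without BR1 of Nut 0h and without BR2 of Nut 10h. ACTA2, smooth muscle actin and a known p53 target, rose from 66.7 and 75.1 to 631 and 692 (3.22 ± 0.15, adjusted p = 4.33e-09 by edgeR), and FHL2 rose by 1.42 (adjusted p = 5.2e-08). Without the offset neither was called at Nut 1h (−0.46 and 0.01), and with it ACTA2 was called lower (−0.65) and FHL2 was not (−0.18).

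Among 21 other immediate early genes, 9 rose and 8 fell at Nut 1h, with a median of 0.18, and with the offset 13 rose and 3 fell. The shares of all tested genes were 34.5% and 32.3%, and 20.2% and 25.3% with the offset. The largest change was in JUND, an AP-1 subunit gene, which fell from 11504 and 8720 to 2703 and 3324 normalized counts (−1.75 ± 0.16, adjusted p = 8.56e-07 by edgeR's quasi-likelihood test), and with the offset stood at 0.01. ATF3, a stress-induced factor and p53 target, rose from 732 and 617 to 1973 and 2168 (1.62 ± 0.13, adjusted p = 2.35e-07, and called higher with the offset too), and remained at 2052 and 1646 at Nut 10h. FOS, the classical immediate early gene, fell from 3379 and 3190 to 1305 and 1311 (−1.33 ± 0.14, adjusted p = 2.63e-06 by edgeR), by 1.09 with the offset, and stood at 1164 and 1741 at Nut 10h. ARC fell by 1.21, a fall that the offset turned (0.23).

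At Nut 10h 5 of these 21 genes rose and 6 fell, beside 14.1% and 14.9% of all tested genes, and 5 rose and 7 fell with the offset, beside 16.8% and 22.4%. BTG2, an antiproliferative p53 target, stood at 6892 and 7226 normalized counts against 1040 and 955 in the controls (2.82 ± 0.10, adjusted p = 3.43e-10 by edgeR's quasi-likelihood test) and at 2075 and 2097 at Nut 1h. ATF3 was higher by 1.45 on the log2 scale, FOS lower (−1.18 ± 0.14) and SGK1 lower (−1.02 ± 0.22, adjusted p = 0.00361 by edgeR).

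Of 16 ERK and CREB signalling genes, 5 rose and 7 fell at Nut 1h, with a median of −0.00, beside 34.5% and 32.3% of all tested genes. With the offset 2 rose and 8 fell, beside 20.2% and 25.3%. MAP2K2 (−1.51 ± 0.14, adjusted p = 6.23e-07 by edgeR's quasi-likelihood test) and MAPK3 (−1.44 ± 0.12, adjusted p = 2.97e-07), which encode MEK2 and ERK1, fell also with the offset (−0.71 and −0.52). HRAS fell by 1.11, and with the offset it was at −0.09 and not called. At Nut 10h RPS6KA1 rose (0.40 ± 0.11, adjusted p = 0.0116 by edgeR) and MAPK3 fell (−0.32 ± 0.11, adjusted p = 0.0451). The call of MAPK3 was lost with DESeq2 size factors, upper-quartile scaling, only the compared groups, or without BR1 of Nut 0h, either Nut 1h library or BR2 of Nut 10h, and that of RPS6KA1 without BR2 of Nut 0h. With 1 rise and 1 fall among the 16, the background at Nut 10h was 14.1% and 14.9% of all tested genes. With the offset 1 rose and 5 fell, beside 16.8% and 22.4%.

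Of 6 genes for proteins that bind AU-rich elements, through which many immediate early mRNAs are degraded or stabilized, 1 rose and 3 fell at Nut 1h, beside 34.5% and 32.3% of all tested genes, and with the offset 3 rose and 1 fell, beside 20.2% and 25.3%. At Nut 10h 5 fell with and without the offset, with medians of −0.48 and −0.46, beside 22.4% and 14.9% of all tested genes. Without BR1 of Nut 0h or either Nut 1h library, 1 fell at Nut 1h and 3 at Nut 10h. KHSRP and HNRNPD were each lower by 0.58 on the log2 scale at Nut 10h (adjusted p = 0.000917 and 0.0007 by edgeR's quasi-likelihood test), ZFP36L2 by 0.56 (adjusted p = 0.00125) and ZFP36 by 0.37 (adjusted p = 0.0194). The NR4A partner receptors RXRA and RXRB fell by 0.84 and 0.54 at Nut 1h, and with the offset neither was called (0.00 and 0.13). RXRB was higher at Nut 10h (0.33 ± 0.10, adjusted p = 0.0224 by edgeR), a call lost without the low-count filter, BR2 of Nut 0h or either Nut 1h library. RXRA was not called there (0.26). With the offset both RXRA (0.23) and RXRB (0.30) were called higher. Of all tested genes 14.1% were called higher at Nut 10h, and 16.8% with the offset. RXRG and MYOCD did not pass the low-count filter.

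**Figure D5:**
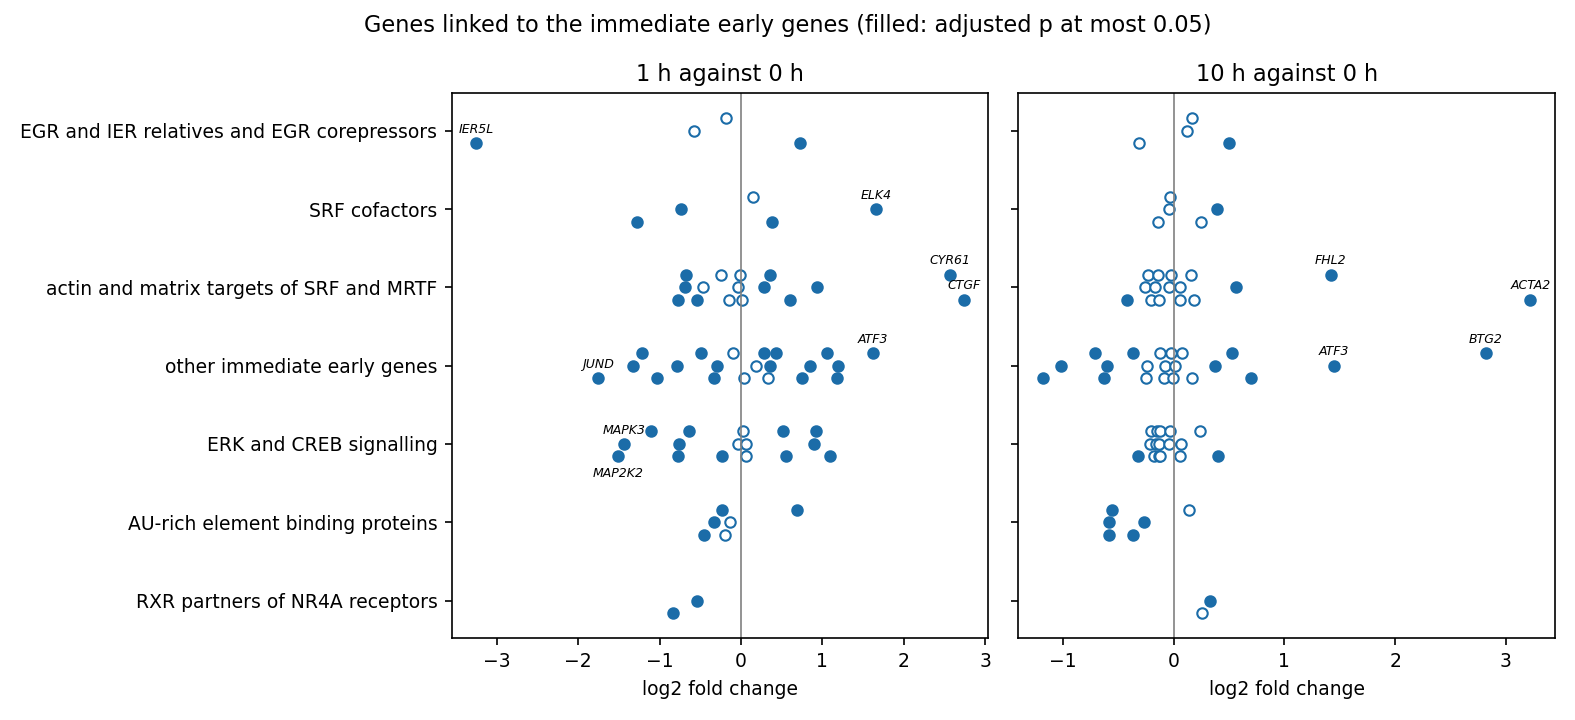
Log2 fold changes (horizontal axis, each panel with its own scale) of the tested genes of 7 lists linked to the immediate early genes, at 1 h and 10 h against 0 h, without the GC-content offset; filled points have an adjusted p of at most 0.05, and genes with a change of at least 1.4 are named. CTGF and CYR61 stand highest at 1 h and near 0 at 10 h, whereas ACTA2 and BTG2 stand highest at 10 h.

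Genes with the pattern most like a member's were ranked by the Euclidean distance between mean-centred log2(CPM + 1) values over the 6 libraries, among 11575 genes. Nearest to NR4A1 were LRRCC1 (distance 0.175, log2 fold changes 0.90 at Nut 1h and −0.88 at Nut 10h), CACYBP (0.192) and VRK1 (0.245). PTGER4 (0.268), HIRIP3 (0.321) and JUN (0.372) were nearest to EGR1. JUN, the AP-1 subunit gene, was higher at Nut 1h (0.43) and lower at Nut 10h (−0.63), as EGR1 was (0.42 and −0.90). For IER2 they were MAST2 (0.0503), SMARCD2 (0.0630) and TFAP4 (0.0649), and for IER3 they were SMUG1 (0.0574), ECE1 (0.0662) and SSR4 (0.0672). IER2 and IER3, with small changes, had neighbours closer than those of NR4A1 and EGR1. Likeness over 6 libraries of 3 conditions is a description, since all these genes share the libraries and, at Nut 1h, the dependence on GC content.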

How the data were processed

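RNA-seq counts of HCT116 cells in 3 conditions (2 libraries each, 26068076 to 35473485 counts) were analysed. The authors trimmed reads (Trim Galore 0.6.6), aligned them to GRCh37.p13 (STAR 2.7.0f) and counted them per gene (featureCounts of Subread 2.0.0), and the deposited counts are not normalized. Strand setting and treatment of multimapping reads are not given in the sources used here, so antisense reads cannot be separated. A second deposited table holds the authors' fold changes and p-values from DESeq2 1.36.0 and was used only for gene symbols.

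All 6 libraries entered 1 fit: filterByExpr (16565 genes kept), TMM scaling, and the quasi-likelihood test of edgeR 4.0.16 run in R 4.3.3, with condition as the only term, 3 residual degrees of freedom and Benjamini-Hochberg adjustment over all tested genes. Genes with an adjusted p of at most 0.05 were called. The members and lists were chosen with earlier results of these data known. GC content came from the longest GENCODE transcript on GRCh37 (known for 97.4% of tested genes), and its offset was a loess trend (span 0.4) in each library. Promoters came from RefSeq (GRCh38.p14).

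List genes were named if called, at most the 4 largest changes per list and comparison (mean normalized count 50 or more). Also named were the 3 genes nearest to NR4A1, EGR1, IER2 and IER3 (mean normalized count 100 or more), and MDM2 and CDKN1A. A further gene of this rule is left out here. Alternatives were DESeq2 1.42.0, its size factors, upper-quartile scaling, no low-count filter, a replicate block, the GC-content offset, only the compared groups in the fit, and each library left out. Figures were drawn with matplotlib 3.10.9.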

Additional observations from a re-analysis of the deposited data

How the results depend on the processing

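Of 240 member values under alternatives that kept every library of the compared groups, 219 kept sign and call, as did 162 of 180 with 1 library left out. The GC-content offset, alone or with the replicate block, turned IER2 (0.28), IER3 (0.25) and SRF (0.76) at Nut 1h against Nut 0h, and IER2 (−0.71), IER3 (−0.04) and SRF (−0.71) at Nut 10h against Nut 1h. With or without the block, it left 1 member lower at Nut 1h and 1 higher from Nut 1h to Nut 10h. With the offset, 20 list genes were lower at Nut 10h against Nut 0h (12 without) and 17 higher from Nut 1h to Nut 10h (28 without), or 14 with offset and block together. At Nut 1h 18 list genes were lower with the offset and 17 with offset and block (26 with neither, 25 with the block alone). Over all tested genes the offset gave 3348 higher at Nut 1h (3217 with the block, 5722 without either) and 3717 lower at Nut 10h (2470 without). The replicate block alone changed none of the 30 member calls (6 members higher at Nut 1h), and same-numbered libraries did not deviate together in every pair of conditions (correlations of −0.13 for Nut 0h and Nut 1h, 0.20 for Nut 0h and Nut 10h, and −0.12 for Nut 1h and Nut 10h). EGR1 lost its call at Nut 1h with DESeq2 size factors (0.39) and the DESeq2 test (0.37), and NR4A2 at Nut 10h without the low-count filter (0.30), with DESeq2 (0.32) and with only the compared groups (0.34). IER3 at Nut 10h gained a call with upper-quartile scaling (0.29). Without the low-count filter NR4A3 gained a call at Nut 10h (0.74). From Nut 1h to Nut 10h, IER2 (0.24) lost its call without that filter (0.24), without either Nut 1h library (0.18 and 0.29) or BR1 of Nut 10h (0.22), and SRF gained one without BR2 of Nut 10h (0.33). With 2 libraries per condition, small changes such as these are the least certain, and the counts of 16 to 54 behind NR4A3 outside Nut 1h limit its fold.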
